A study of Mus musculus with 105 samples.

Results

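The healthy mouse thymus was represented by 4 libraries, those whose tissue in the sample labels is Thymus, out of 105 libraries in the series. They were set against 44 libraries of 11 other healthy tissues, with 4 libraries each: LN (lymph node), spleen, lung, skin, ovary, colon, stomach, brain, heart, kidney and liver. The other 57 libraries come from cultured lines and enter no comparison between tissues. Thymus and all other tissues came from WT female C57BL/6 mice labelled healthy, with no treatment named, and the age of the mice is not given in the sources used here. Poly(A) RNA was sequenced from whole pieces of tissue kept in RNAlater, so each library mixes all cell types of the organ. The labels do not say whether the 4 libraries of a tissue came from separate mice, so each p-value reflects how far these libraries spread, a spread that may be technical.

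The thymus is the organ in which T cells are made. Progenitors that arrive from the blood rearrange their T cell receptor (TCR) genes by V(D)J recombination, divide, pass through a stage that carries both CD4 and CD8, and are kept or removed according to what their receptor binds. A stroma of cortical and medullary epithelial cells attracts them, gives them Notch signals and shows them self peptides, including those of genes otherwise used in other organs. In whole tissue RNA, fewer cells of a type and less RNA per cell cannot be told apart.

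The promoters of 3 genes are shown because they stand for the recombinase, the pre-TCR and the cortical epithelium, each with a gene that no other tissue approached in level. Each is the 250 bases before the RefSeq start (GRCm38.p6), 5′ to 3′ on the strand of the gene. For Rag1 (chr2:101649533-101649782, minus strand) and Ptcra (chr17:46763713-46763962, minus strand) the capitals mark the E-box hexamers CAGGTG and CAGCTG, a kind of site known to be bound by E proteins. For Psmb11 (chr14:54625060-54625309, plus strand) they mark GCGTC, the reverse complement of GACGC, the core known for the epithelial factor Foxn1.
Rag1: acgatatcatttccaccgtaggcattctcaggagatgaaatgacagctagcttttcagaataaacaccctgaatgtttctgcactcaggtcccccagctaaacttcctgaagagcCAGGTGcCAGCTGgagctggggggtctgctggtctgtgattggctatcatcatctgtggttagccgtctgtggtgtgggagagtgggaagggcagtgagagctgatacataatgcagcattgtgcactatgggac
Ptcra: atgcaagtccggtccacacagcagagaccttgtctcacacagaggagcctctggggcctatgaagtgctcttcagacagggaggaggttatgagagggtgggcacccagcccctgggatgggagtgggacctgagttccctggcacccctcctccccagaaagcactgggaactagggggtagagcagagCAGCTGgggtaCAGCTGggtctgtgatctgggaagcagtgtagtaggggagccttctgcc
Psmb11: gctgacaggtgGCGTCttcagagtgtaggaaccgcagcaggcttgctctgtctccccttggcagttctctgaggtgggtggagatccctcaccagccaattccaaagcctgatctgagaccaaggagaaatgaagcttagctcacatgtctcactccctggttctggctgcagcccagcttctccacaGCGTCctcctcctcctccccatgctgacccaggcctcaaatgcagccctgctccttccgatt
The hexamers of Rag1 lie 129 and 122 bases before the start, those of Ptcra 54 and 43 bases, and the cores of Psmb11 234 and 57 bases. An E-box hexamer, searched on both strands, was present in 5 of 14 V(D)J recombination genes, 4 of 5 TCR complex genes and 9 of 30 thymic epithelium genes with a promoter, against 30.6% of 27018 genes and 27.7% of 32841 promoters. GACGC was present in 3 of 14, 0 of 5 and 10 of 30 of these genes, against 24.9% of genes and 22.6% of promoters. A match describes the letters of the window and not a bound site.

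Library totals were 73.1, 147.3, 66.7 and 130.6 × 1e6 counts in thymus replicates 1 to 4 and 53.6 to 254.1 × 1e6 in the other tissues. Levels are in CPM, counts scaled to 1e6 counts of a library, which do not account for gene length and are compared here between samples of a gene. Genes were tested with edgeR's quasi-likelihood test, and a call means a Benjamini-Hochberg adjusted p under 0.05 over 26242 tested genes. Thymus was compared with the mean of the 11 tissues and with each of them. That mean averages the fitted log levels of the 11 tissues with equal weight, so tissues near 0 pull it down. A gene can be called above it although the average of the 11 CPM levels is higher than the thymus level. Krt5 was such a gene, at 238 CPM in thymus against an average of 516 CPM over the 11. A gene is said to be above each, or below each, when it passed the test in that direction against all 11.

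Most genes differed between thymus and the mean of the 11 tissues: 10470 were higher in thymus (39.9%) and 7640 lower (29.1%). Far fewer set thymus apart from every organ, with 1514 above each (5.77%) and 701 below each (2.67%). Of the 1514, 892 had a thymus mean at least 2 times that of the next highest tissue, 174 at least 10 times and 43 at least 100 times. The next highest tissue was spleen for 533 of them and LN for 522. Against LN 7547 genes were higher in thymus (28.8%) and 6160 lower (23.5%), and against spleen 7708 were higher (29.4%) and 5785 lower (22%). These shares of all tested genes are the background for every count of list members given below. The median log2 fold of all tested genes was 0.10 against the mean of 11, 0.09 against LN and 0.15 against spleen. The sequencing runs were named D812, with 40 of the 48 tissue libraries, and D804, with 8, 1 of them from thymus; run was a term of the fit, and within D812 alone 1428 genes were above each and 546 below each.

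**Figure D1:**
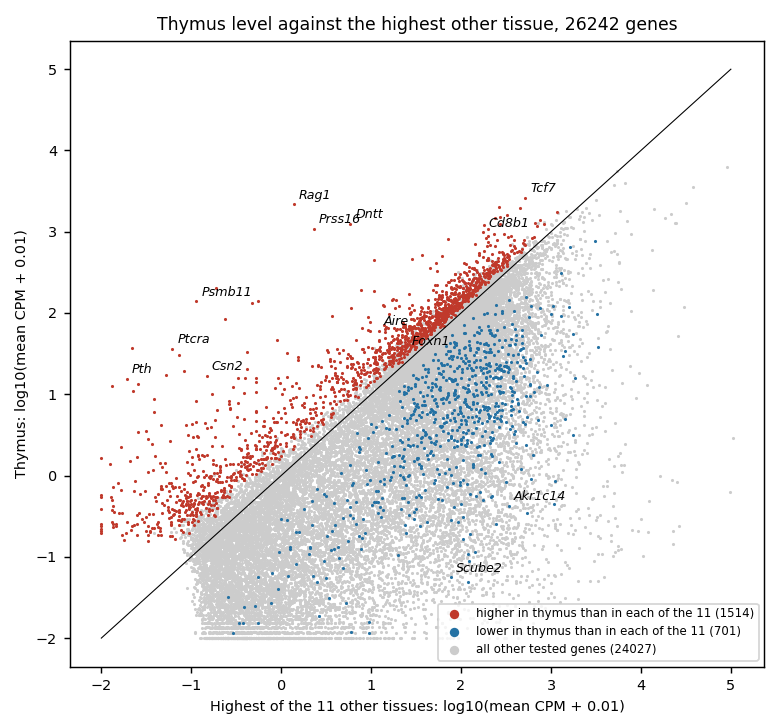
Mean level in thymus (vertical axis) against the highest mean among the 11 other tissues (horizontal axis), both as log10(mean CPM + 0.01), for 26242 tested genes, with a line at equality. The 1514 genes above each tissue and the 701 below each are coloured as the legend gives them, and Rag1, at 2182 CPM in thymus and 1.37 CPM in brain, lies far above the line.

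V(D)J recombination genes held some of the widest gaps between thymus and the other organs. Rag1 and Rag2 encode the recombinase that cuts the receptor genes, and Dntt encodes the polymerase that adds untemplated bases at the joints. Rag1 was at 1416, 2452, 1778 and 3081 CPM in the thymus libraries, and the highest of the 44 other libraries held 3.72 CPM. Rag2 was at 177, 166, 212 and 247 CPM in thymus, against at most 0.467 CPM elsewhere. Every thymus library lay far above every other library for both genes; the Rag1 promoter is the one printed above. Dntt was at 1241, 1126, 1299 and 1331 CPM in thymus, against 11.4, 3.86, 3.48 and 4.75 CPM in LN, its next tissue. The log2 fold of Dntt over LN was 7.70 (SE 0.42, edgeR adjusted p = 6.3e-17). The 4 thymus levels of Dntt lay close together, while those of Rag1 spread 2.18-fold.

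Of the 16 genes of this list 7 were above each tissue (43.8%, against 5.77% of all tested genes) and 1 below each, with a median log2 fold over the mean of 11 of 1.18, against 0.10 for all tested genes. Among the genes of end joining, Xrcc6, the Ku70 subunit that holds broken ends, was at 414, 351, 333.8 and 323.1 CPM in thymus, against 44.4, 39.6, 53.96 and 44.2 CPM in spleen. Xrcc6 overlaps Desi1 on the opposite strand, itself at 299.8 CPM in thymus, and the strand setting of the counting is not given, so reads of the pair cannot be told apart. Xrcc5, the other Ku subunit gene, averaged 33.8 ± 3.39 CPM in thymus and 27.5 ± 2.37 CPM in LN (SD, n = 4 each, as for all values given with ±), and kidney held 53.03 CPM. Lig4, the ligase of end joining, averaged 97.5 ± 5.43 CPM in thymus, against 15.9 CPM in colon, its next tissue, a log2 fold of 2.27 (SE 0.13, edgeR adjusted p = 5.2e-18). Hmgb1 and Hmgb2, DNA-bending proteins that assist the recombinase in vitro, averaged 667 and 529 CPM in thymus, against 238 CPM in ovary and 218 CPM in spleen. The 1 gene below each was Poll, a repair polymerase, at 8.25 ± 1.11 CPM in thymus and 20.9 CPM in LN, and without thymus replicate 4 it was no longer called against skin (adjusted p = 0.0507). Within run D812 alone the log2 fold of Poll against skin was -0.14 and was not called (adjusted p = 0.362). Prkdc, Atm and Dclre1c, the kinases and the nuclease of this repair route, were higher in thymus than the mean of 11 and not called against LN.

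Receptor chains and CD3 subunits were higher in thymus than in every other organ with 1 exception. Of 12 genes of the TCR and pre-TCR 11 were above each tissue (against 5.77% of all tested genes). The median log2 folds of the 12 were 2.42 over LN and 3.12 over spleen. Ptcra, the pre-TCR alpha chain that pairs with a new beta chain before the alpha gene is rearranged, was at 51.7, 32.7, 30.8 and 29.9 CPM in thymus, and no other library exceeded 0.0934 CPM. Cd3e, Cd3d, Cd3g and Cd247, whose products signal for the TCR, averaged 494, 313.3, 578 and 404 CPM in thymus, against 175, 113, 178 and 112 CPM in LN. The beta constant genes Trbc1 and Trbc2 averaged 1213 ± 377 and 1475 ± 523 CPM in thymus, against 180.3 ± 28.8 and 241 ± 25.6 CPM in LN; they are near-identical, so their split is uncertain. The exception was the alpha constant gene Trac, at 437, 307.3, 386 and 353 CPM in thymus, against 238, 245, 182 and 233 CPM in LN. The 4 thymus libraries lay above the 4 LN libraries, and the log2 fold over LN of 0.68 (SE 0.33, edgeR adjusted p = 0.0762) was not called. Trdc, the delta constant gene, averaged 145 ± 12.97 CPM in thymus and 18.98 ± 4.18 CPM in LN, and Tcrg-C1, Tcrg-C2 and Tcrg-C4 were likewise above each.

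Variable and joining segments were counted as genes of their own. Of 171 tested TCR segments and constant genes 102 were above each tissue (59.6%), and of 244 immunoglobulin genes 0 were. Beta segments passed almost throughout, with 23 of 24 Trbv and 14 of 14 Trbj above each. Summed, the Trbv segments held 359, 508, 463 and 562 CPM in thymus, against 143, 149, 111 and 133 CPM in LN. Alpha segments were uneven, with 33 of 37 Traj and 12 of 69 Trav above each. These counts depended on the tool and the libraries: Traj numbered 10 with DESeq2 and 24 without thymus replicate 1, and Trav numbered 9 with DESeq2 and 7 without thymus replicate 2. Trbv numbered 22 and Trbj 14 with DESeq2. With at least 1 CPM required in 4 libraries, 1 Traj and 2 Trav were called. Most Traj and many Trav averaged under 1 CPM in thymus, so that filter removed many segments before testing. Summed, the Trav segments held 41.3, 84.9, 67.9 and 85.9 CPM in thymus, against 48.2, 61.2, 42.7 and 54.8 CPM in LN, so these sums overlapped. Many Trav segments have near-identical copies, and their single counts are uncertain.

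Along the alpha locus the excess over LN varied with position. In chromosome order, the first 23 Trav segments (Trav1 to Trav10n) had a median log2 fold over LN of 0.11 with 1 above each tissue, the next 23 had 0.15 with 2, and the last 23, nearest the joining segments, had 0.69 with 9. Traj segments ran the other way, with medians of 2.89, 2.76 and 2.18 for the first 13 (Traj61 to Traj34), the next 12 and the last 12 (Traj19 to Traj1). The rank correlation of position with the log2 fold over LN was 0.57 over the 69 Trav and -0.55 over the 37 Traj segments, a description, since segments share libraries and sequence. The last 23 segments took 43.9 to 51.2% of Trav counts in the thymus libraries, 35.6 to 38.3% in LN and 37.4 to 41.5% in spleen. The first 13 took 18.9 to 30.7% of Traj counts in thymus, 10.4 to 14.2% in LN and 9.18 to 15.4% in spleen. The next 12 took 7.34 to 32.6% in thymus and 10.4 to 16.8% in LN, which overlap. Their sum was 15.7, 1.72, 3.49 and 4.46 CPM in thymus replicates 1 to 4. In thymus, V segments near the J cluster and J segments near the V cluster thus held a larger share than in LN and spleen, with no overlap of the thymus libraries with the others.

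**Figure D2:**
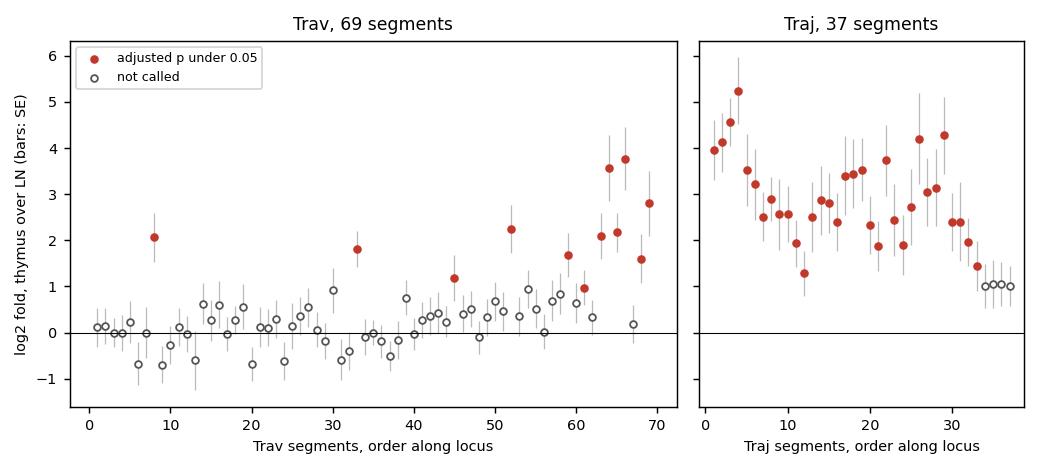
Log2 fold of thymus over LN (vertical axis, bars show the SE) for 69 Trav segments (left) and 37 Traj segments (right) in their order along the locus (horizontal axis), with called segments marked as the legend gives. Of the 12 called Trav segments 9 are among the last 23, while 33 of 37 Traj segments are called and the uncalled ones lie at the end of the order.

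TCR signalling genes were mostly highest in thymus. Of 28 genes 17 were above each tissue (against 5.77% of all tested genes). Against LN 17 were above (28.8% of all tested genes) and 4 below (23.5%). Lck, the kinase bound to CD4 and CD8, was at 1878, 1274, 1686 and 1580.1 CPM in thymus, against 363, 340.01, 264 and 339.5 CPM in LN, with no overlap. Lat, the adaptor of the receptor, averaged 1085 ± 391.5 CPM in thymus and 199 ± 25.3 CPM in LN. Themis, which is needed for positive selection, and Sh2d1a, the adaptor SAP, had log2 folds over LN of 2.92 (SE 0.39, edgeR adjusted p = 5.49e-08) and 3.15 (SE 0.34, edgeR adjusted p = 6.3e-10). The genes below LN included Fyn, Nfatc1 and Nfatc2. Nfatc3, a transcription factor of this pathway, averaged 453 ± 63.95 CPM in thymus and 193 CPM in spleen and was above each.

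Among stage markers, Cd4, Cd8a and Ccr9, which double positive cells carry, were higher in thymus, while S1pr1, Klf2 and Il7r, which mature naive cells carry, were lower in thymus than in LN and spleen. Of 22 stage genes 7 were above each tissue (against 5.77% of all genes). Against LN 9 were above and 10 below (28.8% and 23.5% of all genes). Against spleen 9 were above and 9 below (29.4% and 22% of all genes). Cd8a was at 1466, 1435, 1497 and 1597 CPM in thymus, against 293, 334.4, 208 and 255 CPM in LN. Cd4 averaged 940.3 ± 67.1 CPM in thymus and 303.9 ± 56.7 CPM in LN, a log2 fold of 1.58 (SE 0.42, edgeR adjusted p = 0.00159). Ccr9, the receptor for the thymic chemokine Ccl25, was at 321.3, 504, 511 and 722 CPM in thymus, against 54.8, 32.1, 28.3 and 33.8 CPM in LN. Arpp21, another gene known from double positive cells, averaged 382 CPM in thymus and 206 CPM in brain, where neurons use it, with a log2 fold over brain of 0.70 (SE 0.36, edgeR adjusted p = 0.076).

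S1pr1, the receptor by which mature T cells leave the thymus, was at 37.2, 46.5, 51.6 and 43.7 CPM in thymus, against 272, 268, 233 and 302.01 CPM in LN. Klf2, the factor that turns S1pr1 on, averaged 81.4 ± 24.05 CPM in thymus, 319.2 ± 59.1 CPM in LN and 375 ± 70.8 CPM in spleen. For both genes the thymus libraries lay below all LN libraries. Ccr7, a homing receptor of naive T cells, had a log2 fold over LN of -1.35 (SE 0.30, edgeR adjusted p = 0.00021). Against spleen Ccr7 was not called, with a log2 fold of -0.63 (SE 0.30, edgeR adjusted p = 0.0728). Il7r, the survival receptor of naive cells, averaged 62.2 ± 14.9 CPM in thymus, 248 ± 15.5 CPM in LN and 106 ± 32.1 CPM in spleen. The progenitor genes Kit and Flt3 averaged 20.9 and 22.9 CPM in thymus, against 46.4 and 66.3 CPM in LN. Il2ra, which marks the stage of beta rearrangement and also regulatory T cells, was above each tissue, at 87.4 ± 14.4 CPM in thymus and 44.5 ± 4.47 CPM in LN.

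**Figure D3:**
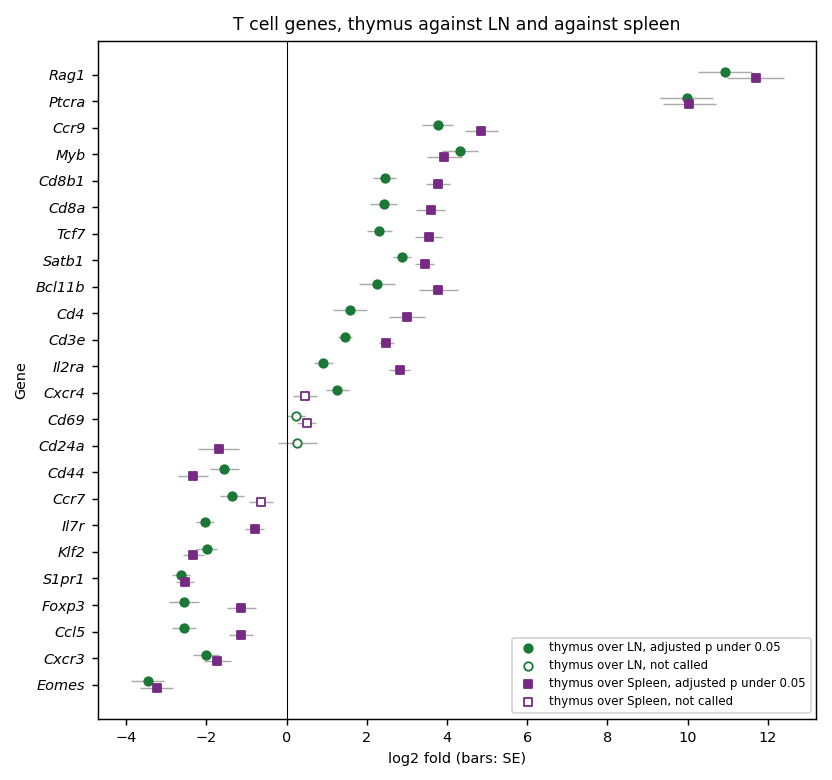
Log2 fold of thymus over LN and over spleen (horizontal axis, bars show the SE) for 24 T cell genes (vertical axis), with the symbols given in the legend. Rag1, Ptcra, Ccr9 and Cd8a lie right of 0 in both comparisons, and Klf2, S1pr1, Foxp3 and Eomes lie left of 0 in both.

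Among 35 T lineage transcription factors 12 were above each tissue and 0 below each (against 5.77% and 2.67% of all tested genes). Against LN 15 were above and 11 below (28.8% and 23.5% of all tested genes). Against spleen 17 were above and 9 below (29.4% and 22% of all tested genes). Tcf7, which starts the T cell program, was at 2031, 3024, 2393 and 3025 CPM in thymus, against 534, 563, 406 and 545 CPM in LN. Satb1, a chromatin organiser of thymocytes, averaged 1988 ± 230.3 CPM in thymus and 264 ± 37.9 CPM in LN, and Bcl11b, which commits cells to the T lineage, 696 ± 153 CPM in thymus and 142 ± 23.3 CPM in LN. Myb, needed by double positive cells, averaged 819 ± 40.7 CPM in thymus and 70.7 CPM in colon, its next tissue, a ratio of 11.6. For each of these genes all thymus libraries lay above all 44 others. Some factors of progenitors and of other blood lineages were lower in thymus. Lmo2 averaged 10.3 ± 0.426 CPM in thymus and 143 ± 21.7 CPM in LN, and Mef2c 8.56 ± 1.07 CPM in thymus and 197 ± 34.2 CPM in LN.

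Of 18 Notch pathway genes 0 were above each tissue and 1, the inhibitor gene Numb, was below each. Of all tested genes 5.77% were above each and 2.67% below each. The receptor gene Notch1 was at 298, 435, 249 and 317.1 CPM in thymus, against 127, 137, 147 and 138 CPM in LN, but lung reached 249.6 CPM and the log2 fold over lung was 0.20 (SE 0.19, edgeR adjusted p = 0.355). Dll4, the Notch ligand of thymic epithelium, averaged 18.8 ± 4.03 CPM in thymus and 19.03 ± 0.705 CPM in LN and was not called between them. The ligand gene Jag2 averaged 71.2 CPM in thymus, 19.3 CPM in LN and 8.43 CPM in spleen, and was called higher than both. The target genes Hes1, Nrarp and Heyl were below the mean of the 11 tissues, and the target gene Dtx1 was below both LN and spleen.

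Cell cycle genes were higher in thymus than in LN almost throughout, and higher than in spleen for fewer of them. Of 56 genes 54 were above the mean of 11 (against 39.9% of all genes) and 53 above LN (against 28.8%). Above spleen were 30 (against 29.4%) and above each tissue 27 (against 5.77%). The last 2 counts moved with the spleen libraries: without spleen replicate 3 they were 43 and 39, without replicate 1 they were 21 and 21, and without replicate 2 they were 20 and 20. Top2a, a topoisomerase of dividing cells, was at 587, 765, 553 and 763 CPM in thymus, against 114, 98.9, 284 and 277 CPM in spleen. Mki67, a marker of cycling cells, was at 886, 721, 469 and 746 CPM in thymus, against 175.8, 134, 584 and 576 CPM in spleen, a log2 fold of 0.80 (SE 0.44, edgeR adjusted p = 0.131) that was not called. Spleen replicates 3 and 4 held more of both genes than replicates 1 and 2, and thymus and spleen libraries overlapped for Mki67. The cyclin gene Ccnd3, which the pre-TCR response needs, averaged 1245 ± 325.9 CPM in thymus and 270.3 ± 90.6 CPM in spleen, while its relative Ccnd1 was below each tissue at 33.1 ± 2.66 CPM in thymus and 106 ± 8.12 CPM in spleen.

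Of 20 nucleotide metabolism genes 4 were above each tissue (against 5.77% of all tested genes): Ada, Dck, Tyms and Dut. Ada, whose loss blocks lymphocyte development, was at 65.7, 67.5, 64.2 and 66.5 CPM in thymus and averaged 15.5 CPM in ovary, its next tissue. Dck, which salvages deoxynucleosides, averaged 258 ± 21.3 CPM in thymus and 83.9 ± 27.6 CPM in spleen. Samhd1, which degrades deoxynucleotides, averaged 165 ± 16.6 CPM in thymus and 712 ± 88.0 CPM in LN.

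Genes of the thymic epithelium formed the other large contrast. Of 38 genes 11 were above each tissue (28.9%), 22 above and 10 below LN, and 28 above and 7 below spleen. The median log2 folds were 1.55 over LN and 3.56 over spleen. Of all tested genes 5.77% were above each, 28.8% above and 23.5% below LN, and 29.4% above and 22% below spleen. Psmb11, the thymoproteasome subunit of cortical epithelium, was at 159, 164, 141 and 97.4 CPM in thymus, and the highest of the 44 other libraries held 0.192 CPM. Prss16, a protease of cortical epithelium, was at 1168, 1326, 1072 and 778 CPM in thymus, against 1.79, 2.67, 1.56 and 3.12 CPM in LN, its next tissue. Both genes were lowest in thymus replicate 4, as were Tbata and Pax1. Foxn1, the master factor of thymic epithelium, was at 28.7, 48.98, 30.7 and 28.8 CPM in thymus and averaged 24.7 CPM in skin, where hair follicles use it, a log2 fold of 0.35 (SE 0.44, edgeR adjusted p = 0.481) that was not called. Ccl25, the chemokine for Ccr9, averaged 452 ± 112 CPM in thymus and 10.8 CPM in colon, and overlaps Elavl1 on the opposite strand. Among the members lower in thymus were Kitl, a growth factor gene, and Cxcl12, a chemokine gene that other stroma also uses, at 18.1 ± 3.72 and 271 ± 53.6 CPM in thymus, against 44.8 ± 5.48 and 527 ± 58.8 CPM in LN.

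In the medulla, Aire, which turns on tissue-restricted genes for tolerance, was at 59.4, 58.3, 58.4 and 67.4 CPM in thymus, against 19.6, 10.8, 6.82 and 11.1 CPM in LN. Fezf2, another regulator of such genes, averaged 25.4 ± 3.46 CPM in thymus and 3.51 CPM in brain, where it specifies cortical neurons, and with DESeq2 it was not called against brain (adjusted p = 0.486). It had no count in any LN or spleen library, where 3 counts, the number that a count of 0 still allows, equal at most 0.0435 CPM in LN and 0.0452 CPM in spleen. Csn2, a milk casein gene known as a self antigen of the medulla, was at 17.7, 14.5, 18.6 and 16.9 CPM in thymus, against 0.176, 0.102, 0.0983 and 0.175 CPM in LN. Of 6 tested antigen genes Csn2 and Fabp9 were above each tissue, and with DESeq2 Fabp9 was not called against skin (adjusted p = 0.139). Chrna9, an acetylcholine receptor subunit gene, averaged 85.4 ± 13.3 CPM in thymus and 0.226 CPM in LN, and Nron 19.1 ± 1.24 CPM in thymus and 0.0734 CPM in LN; Nron overlaps Mvb12b on the opposite strand. Of the 15 genes with the largest log2 fold over the mean of 11, the others not yet named are BB031773, BC028471, Cd8b1 and Pth.

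Genes of mimetic cells, the medullary cells that resemble cells of other organs, were by number mostly higher in thymus than in LN and spleen. Their summed level was lower, and none passed the test against each of the 11. Krt5, a keratin gene of basal and medullary epithelium, averaged 238 ± 14.5 CPM in thymus, 5611 CPM in skin and 5.61 ± 7.65 CPM in LN. Of 19 tuft and mimetic cell genes 0 were above each tissue, while 14 were above LN and 14 above spleen (against 28.8% and 29.4% of all tested genes). In the other direction 2 were below LN and 3 below spleen. The list summed to 431 to 490 CPM in the thymus libraries, 539 to 839 CPM in LN and 769 to 853 CPM in spleen. Pou2f3, the tuft cell factor, averaged 3.98 ± 0.424 CPM in thymus, 0.0659 ± 0.0512 CPM in LN and 137 CPM in skin.

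**Figure D4:**
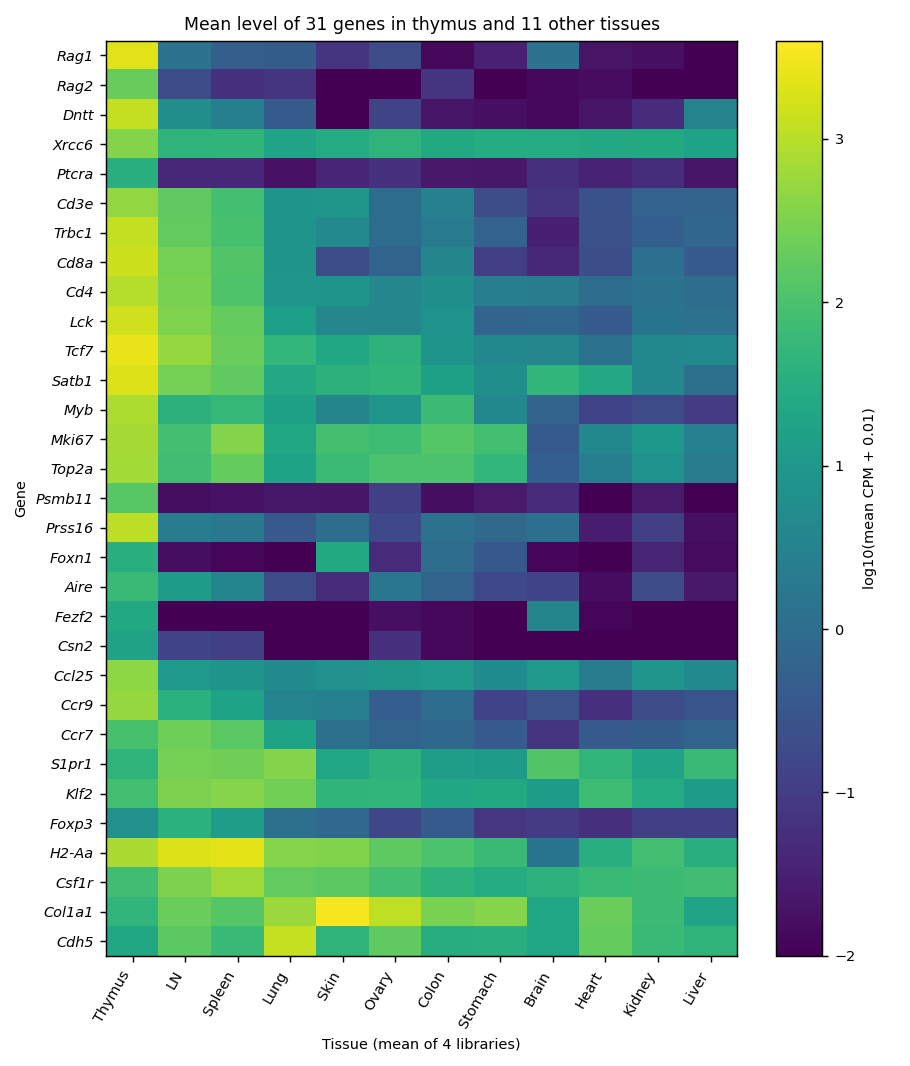
Mean level of 31 genes (rows) in thymus and 11 other tissues (columns, mean of 4 libraries each), coloured by log10(mean CPM + 0.01). Rag1, Ptcra and Psmb11 stand out in the thymus column, Foxn1 is shared with skin, and S1pr1, Klf2 and H2-Aa are lower in thymus than in LN and spleen.

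Of 16 chemokine and receptor genes 4 were above each tissue (against 5.77% of all tested genes): Ccl25, Ccr9, Ccr4 and Ccl20. The calls of Ccr4 and Ccl20 lay near the threshold. Ccr4 lost its call against skin without thymus replicate 2, 3 or 4, LN replicate 2 or 3 or spleen replicate 3 or 4, with log2 folds between 0.57 and 0.75 and adjusted p between 0.05 and 0.145. It also lost it with all libraries kept under RLE size factors, another scaling (log2 fold 0.68, adjusted p = 0.0509). Ccl20 lost its call against colon without thymus replicate 1, 3 or 4, with log2 folds between 0.93 and 1.12 and adjusted p between 0.0503 and 0.0987. Within run D812 alone Ccr4 was not called against skin (log2 fold 0.62, edgeR adjusted p = 0.144). Ccl20 was not called against colon there (log2 fold 1.07, edgeR adjusted p = 0.066). Ccl21a and Ccl19, ligands of Ccr7, averaged 345.1 ± 83.3 and 4.28 ± 1.12 CPM in thymus, against 786 ± 133 and 60.99 ± 7.83 CPM in LN; Ccl21a has near-identical copies. Ccl22, a ligand of Ccr4, averaged 72.2 CPM in thymus, 172 CPM in LN and 10.2 CPM in spleen, and was called lower than LN and higher than spleen.

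Of 23 genes of death and survival 2 were above each tissue (8.70%, against 5.77% of all tested genes). Against LN 9 were above (28.8% of all tested genes) and 7 below (23.5%). Against spleen 4 were above (29.4% of all tested genes) and 10 below (22%). Bcl2l1, whose product protects double positive cells, was at 297, 192, 214 and 189 CPM in thymus, against 38.4, 43.7, 42.98 and 40.5 CPM in LN, and averaged 127 CPM in brain. Without thymus replicate 1, the highest, it was no longer called against kidney (adjusted p = 0.187). Bcl2, which protects mature T cells, averaged 77.9 ± 5.14 CPM in thymus and 127 ± 5.40 CPM in LN. Pdcd1, the inhibitory receptor PD-1, was above each, at 19.7 ± 3.33 CPM in thymus and 8.24 ± 1.41 CPM in LN. Without thymus replicates 1 and 4 together 0 genes of this list were above each. Nr4a1, induced by TCR signals, averaged 118 ± 18.1 CPM in thymus and 46.8 ± 8.34 CPM in LN, and its log2 fold over lung was 0.23 (SE 0.42, edgeR adjusted p = 0.635).

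Effector genes of mature T cells were mostly lower in thymus than in LN. Of 17 effector genes 0 were above each tissue, 10 below LN (against 23.5% of all tested genes) and 11 below spleen (against 22%). In the other direction 3 were above LN and 1 above spleen. Eomes, a factor of memory T and NK cells, averaged 2.05 ± 0.181 CPM in thymus and 22.1 ± 5.67 CPM in LN, and the chemokine gene Ccl5 42.0 ± 7.80 CPM in thymus and 241 ± 40.1 CPM in LN. Gzma, a granzyme gene, was instead at 69.2, 50.2, 61.8 and 55.7 CPM in thymus, against 12.3, 9.55, 7.80 and 12.2 CPM in LN, and averaged 52.5 ± 3.89 CPM in spleen. Of 12 regulatory T cell genes 2, Il2ra and Ikzf2, were above each tissue (against 5.77% of all tested genes). Against LN 2 were above (28.8% of all tested genes) and 6 below (23.5%). Against spleen 3 were above (29.4% of all tested genes) and 4 below (22%). Foxp3, the factor of regulatory T cells, was at 5.38, 7.31, 6.68 and 7.33 CPM in thymus, against 35.3, 42.0, 31.8 and 43.7 CPM in LN, with no overlap and a log2 fold of -2.56 (SE 0.37, edgeR adjusted p = 3.4e-07).

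B cell and antigen-presenting cell genes were mostly lower in thymus than in LN and spleen. Of 18 B cell genes 16 were below LN and 16 below spleen (against 23.5% and 22% of all tested genes). Their summed level was 1267 to 1808 CPM in the thymus libraries, 8649 to 12122 CPM in LN and 17548 to 23785 CPM in spleen. The pre-B cell gene Vpreb1 went the other way, at 2.64 ± 0.986 CPM in thymus and 0.555 ± 0.205 CPM in LN. All 11 tested MHC class II presentation genes were above the mean of 11 and below both LN and spleen, with Cd74, the invariant chain gene, at 1804 ± 501 CPM in thymus and 4564 ± 926 CPM in LN. Of 16 macrophage genes 16 were below spleen (against 22% of all tested genes), 10 below LN (against 23.5%) and 1 above LN. Of 14 dendritic cell genes 11 were below spleen and 11 below LN, while 1 was above each tissue. The part of cell composition in the differences from LN and spleen was not tested.

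Stromal and vascular genes were mostly lower in thymus than in the mean of the 11 organs. Of 14 fibroblast and matrix genes 11 were below the mean of 11, and of 12 endothelial genes 10 were below it. Of all tested genes 29.1% were below it. Pdgfrb and Sparc, and Kdr, Tek, Flt1 and Prox1, were below each tissue. Prox1, the factor of lymphatic endothelium, was at 0.383, 1.04, 1.00 and 0.819 CPM in thymus, against 26.6, 24.7, 19.4 and 26.1 CPM in LN. Kdr, a receptor for vascular growth factor, averaged 13.1 ± 5.58 CPM in thymus and 60.4 ± 7.72 CPM in spleen, and lost its call against brain without thymus replicate 1 or 4 (adjusted p = 0.0658 and 0.0663). Within run D812 alone the log2 fold of Kdr against brain was -0.61 and was not called (edgeR adjusted p = 0.0737).

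By the rule for named genes, 10 of the 701 genes below each are given: Akr1c14, Scube2, Igsf11, Cda, Frzb, Cyp2j8, Sntg2, Ttll7, Enpp6 and Cux2. All 10 averaged under 1 CPM in thymus. Akr1c14, a steroid dehydrogenase gene, was at 0.219, 0.706, 0.509 and 0.237 CPM in thymus, and the lowest of the 44 other libraries held 1.13 CPM. Frzb, a secreted Wnt antagonist gene, averaged 0.157 ± 0.0665 CPM in thymus and 0.790 ± 0.148 CPM in LN. Leaving out single libraries ended the call for 3 of the 10. Igsf11 lost it against spleen without thymus replicate 2, 3 or 4 (adjusted p = 0.0537, 0.0638 and 0.0583) and without spleen replicate 1 or 4 (adjusted p = 0.0553 and 0.162). Enpp6 lost it against LN without thymus replicate 1 or 4 (adjusted p = 0.0721 and 0.0983) and without LN replicate 2 or 3 (adjusted p = 0.0605 and 0.0878). Cyp2j8, with counts in 1 thymus library, lost it against spleen without thymus replicate 1, 3 or 4, LN replicate 1, 2 or 4 or spleen replicate 3 or 4, with adjusted p between 0.0502 and 0.449. With all libraries kept Cyp2j8 also lost it with DESeq2 (adjusted p = 0.0638) and without a filter on low counts (edgeR adjusted p = 0.0733). It was not called within run D812 alone (edgeR adjusted p = 0.11) and kept its call in 8 of 21 alternatives.

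The genes furthest below LN were Glycam1, Cd209b, Il22ra2, Marco and Mmrn1. Glycam1, a mucin gene of lymph node vessels, averaged 0.189 ± 0.111 CPM in thymus and 2692 ± 321.4 CPM in LN. Marco, a scavenger receptor gene of macrophages, averaged 1.03 ± 0.439 CPM in thymus and 356 ± 113 CPM in LN. Those furthest below spleen were Cpa1, Cpb1, Redrum, Cela2a and Rhag. Cpa1, Cpb1 and Cela2a encode pancreatic enzymes, and their differences rest on spleen replicate 4, which held 525, 464 and 558 CPM, while the other 3 spleen libraries held at most 0.164, 0.173 and 0.0727 CPM. Without it their log2 folds over spleen were -2.17, -1.74 and 0.75. On the high side were Psmb11, Fezf2, Pax9, Bpifa1 and Pth against LN, and Krt5, Slc46a2, Fezf2, BB031773 and BC028471 against spleen.

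The genes that differed most between the 4 thymus libraries were Myh6, known from heart muscle, and Ucp1, known from brown fat. Of 10759 genes with at least 10 CPM in a thymus library, 984 varied at least 2-fold between the libraries (9.15%) and 167 at least 4-fold (1.55%), and 106 of the 167 were highest in replicate 2 or 3. Ucp1 was at 5.03, 117, 133 and 0.276 CPM in thymus replicates 1 to 4, and Myh6 at 5.62, 92.1, 109.6 and 0.0766 CPM. Pth, the parathyroid hormone gene, was at 23.7, 11.7, 0.405 and 26.2 CPM, and Chga, a gene of endocrine cells, at 43.4, 22.5, 4.35 and 45.0 CPM. Summed over their lists, adipocyte genes held 481, 1279.8, 1753 and 234 CPM, striated muscle genes 50.5, 197, 301.5 and 42.1 CPM and parathyroid and thyroid genes 72.2, 40.3, 10.5 and 78.4 CPM. Replicates 2 and 3 were high in fat and muscle genes, and replicate 3 was low in parathyroid genes. Replicate 1 stood apart in erythroid genes, whose sum was 976, 292, 372 and 185 CPM in replicates 1 to 4, and in Gm23935, at 2786, 137, 482 and 1037 CPM, and Gm42418, at 14470.0, 1331, 2596 and 4034 CPM. The part of these genes in the results was not tested. Pth was above each tissue although replicate 3 held little of it, and with DESeq2 it was not called against lung (adjusted p = 0.171). LN libraries also differed in fat genes, with adipocyte sums of 158 to 7713 CPM. With all libraries 3 of 12 adipocyte genes were below LN, near the share of all tested genes (23.5%). Without LN replicate 3, thymus replicate 1 or thymus replicate 4, 0 were. Striated muscle genes were above LN in 7 of 14 and above spleen in 7 (against 28.8% and 29.4% of all tested genes). Without thymus replicates 2 and 3 together, an alternative chosen after seeing the data, 4 were above LN and 3 above spleen. In that fit 7021 of 27745 tested genes were above LN and 6784 above spleen, so the muscle counts were near the share of all genes.

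**Figure D5:**
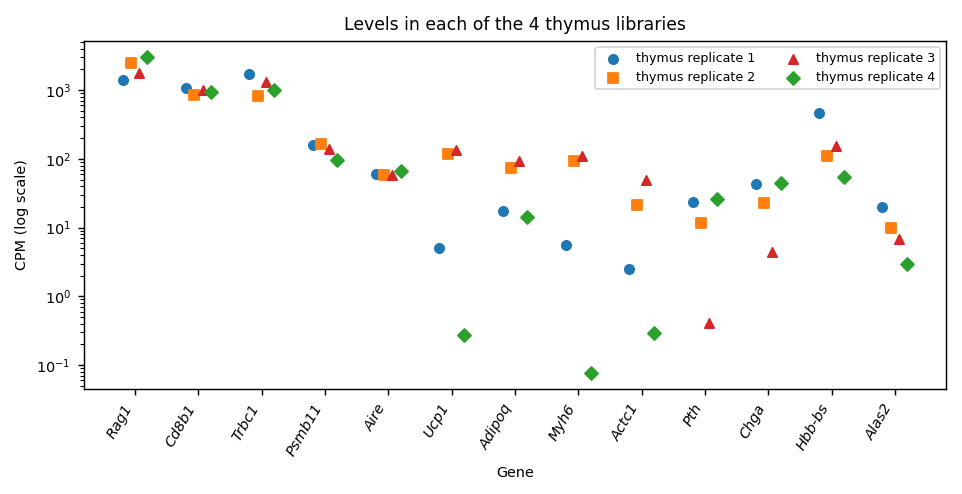
CPM on a log scale (vertical axis) of 13 genes (horizontal axis) in each of the 4 thymus libraries, with 1 symbol per replicate. Rag1, Cd8b1, Trbc1, Psmb11 and Aire spread at most 2.18-fold, while Chga spreads 10.3-fold and Pth 64.8-fold.

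A technical measure differed between the same libraries. The slope of log2 level on log10 gene length, relative to the mean of the tissue, was -0.38, 0.34, -0.24 and 0.29 in thymus replicates 1 to 4, -0.27, 0.31, -0.26 and 0.22 in spleen replicates 1 to 4 and -0.05 to 0.04 in LN. Thymus replicates 1 to 4 are sets 1 to 4 of the library numbering, and spleen replicates 1 to 4 are sets 2, 3, 4 and 1. Within each set the slopes of thymus and spleen had opposite signs. The part of the slope in the spread between thymus libraries was not tested.

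Setdb1, a histone H3K9 methyltransferase gene that is knocked out in cultured lines of the series, was at 94.9, 118, 103 and 134 CPM in thymus and averaged 93.8 CPM in ovary, its next tissue. Its log2 fold over the mean of 11 was 0.59 (SE 0.08, edgeR adjusted p = 1.45e-08), and it was not above each tissue, with a largest adjusted p of 0.0911. Of 22 genes of Setdb1 and H3K9 methylation 8 were above each (against 5.77% of all tested genes). They were Trim28, Suv39h1, Cbx1, Cbx3, Cbx5, Uhrf1, Dnmt1 and Kdm4a. Trim28, the corepressor that brings Setdb1 to its targets, averaged 462 ± 21.01 CPM in thymus and 294 CPM in ovary. Cbx5, which encodes the heterochromatin protein HP1 alpha, was no longer called against brain (adjusted p = 0.0593) without thymus replicate 4, nor within run D812 alone (log2 fold 0.24, adjusted p = 0.108). Uhrf1 and Dnmt1, which copy DNA methylation at replication, are also in the cell cycle list, whose genes stood high in thymus.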

How the data were processed

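The authors deposited raw counts per gene for each library. Per the submitters' processing notes, Trim Galore, FastQC, STAR and HTSeq were used with the mm10 build; no source used here names their versions, the annotation or how strand was treated in counting, while per the labels' protocols the library kit marks strand. Gene symbols and lengths were taken from GENCODE by gene ID (53274 of 53379 IDs matched), and promoters from RefSeq. Genes were filtered with filterByExpr by tissue, scaled by TMM and tested with edgeR 4.0.16 (R 4.3.3), in 1 fit over the 48 tissue libraries with tissue and run as terms. Library numbers of thymus and LN deviated together in 4 of 4 sets (correlation 0.251 to 0.419), and over all tissues they did not. A block on library set was also fitted, but as 1 block shared by all 12 tissues. Thymus and LN were not fitted as pairs on their own, so no p-value given here models that pairing. Depth was 53.6 to 254.1 × 1e6 counts per library; counts of 0 allow up to 3 counts, which covers counting error only. Pipelines were tested on simulated data. Python 3.11.15, pandas 2.3.3, scipy 1.17.1 and matplotlib 3.10.9 were used for summaries, and limma 3.58.1 and DESeq2 1.42.0 among the tools and alternatives. Members and lists were chosen with earlier results of these data known. Named genes, predicted models and receptor segments left out, were the 15 with the largest log2 fold over the mean of 11 among those above each with a thymus mean of at least 1 CPM, the 10 with the lowest among those below each with at least 1 CPM over the 11, the 5 highest and 5 lowest calls against LN and against spleen, and members of the lists. Some results are not reported here.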

Additional observations from a re-analysis of the deposited data

Results flagged for a closer look

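In groups of 4 libraries, 1 library stood far from the other 3 in 16 of the 214 groups examined, and chance flags about 1 in 20. In thymus, replicate 1 was highest for Hmgb2 (675 CPM, against 464 to 488 in the others), Ptcra (51.7, against 29.9 to 32.7) and Glycam1 (0.356, against 0.13 to 0.136). Replicate 2 was highest for Foxn1 (49 CPM, against 28.7 to 30.7), Nron (20.9, against 18.3 to 18.6) and Cyp2j8 (0.00679, against 0). The Cyp2j8 level lay under 0.0204 CPM, the lowest level that 3 counts equal in a thymus library. Replicate 4 was highest for Aire (67.4 CPM, against 58.3 to 59.4) and Myb (879, against 789.6 to 803.9) and lowest for Eomes (1.78, against 2.11 to 2.16) and Sntg2 (0.0459, against 0.105 to 0.115). In LN, replicate 1 was highest for Dntt (11.4 CPM, against 3.48 to 4.75), and replicate 3 was lowest for Ccr7 (178, against 246 to 252) and Poll (18.1, against 21.7 to 22). In spleen, replicate 4 was highest for Cela2a (558 CPM), Cpa1 (525) and Cpb1 (464). Outside the tissues, Prss16 averaged 7.25 CPM in the cultured group MCA101OVA_Setdb1KO, with 12.9 CPM in its highest library.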

How the results depend on the processing

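Counts of genes moved by more than 1.5 times under stricter fold rules. With a 2-fold minimum in the test against the mean of 11, 5238 genes were higher and 3515 lower in thymus; with a log2 fold of at least 1 against each tissue, 821 were above each and 251 below each. Without thymus replicates 1 and 4 together, chosen after seeing the data, 426 were below each. Leaving out 1 thymus, LN or spleen library at a time gave 1339 to 1586 genes above each and 579 to 791 below each; single libraries of the other 9 tissues were not left out. In all 21 alternatives 769 genes were called above each and 395 below each. Without a filter on low counts 67.1% of calls against the mean of 11 were higher, against 57.8% with it. With the library number as replicate block 1552 were above each and 697 below each; deviations of same-numbered libraries correlated over 0.1 in 20 of 44 pairs of thymus with other tissues (-0.437 to 0.419), so the numbers were not taken as pairs across the tissues. In LN 4 of 4 pairs were over 0.1, and 3 of 4 thymus libraries were closest to the LN library of their own number. Against LN the block gave 7582 genes higher and 6100 lower in thymus. Under it 35 cell cycle genes were above each and 39 above spleen, and Ccr7 was called lower than spleen. A total of 3 gene results turned sign, and none was called after the turn (log2 folds). Cela2a over spleen was -11.62 to 0.7533 when 1 library was left out, the highest without spleen replicate 4. Dll4 over LN was -0.2271 to 0.06172 when 1 library was left out, 0.06953 in run D812 alone and 0.1055 without thymus replicates 1 and 4. Gzma over spleen was -0.07878 to 0.1134 when 1 library was left out and -0.01479 without thymus replicates 1 and 4. The cause was not tested. Endothelial genes below each tissue numbered 4, and 2 without thymus replicates 1 and 4 together. Without thymus replicates 1 and 4 together 10 Traj segments were above each, and without 2 and 3 together 9 Trbj and 6 Trav segments were.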

Other observations

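Levels of the genes above each tissue were also read in the cultured lines. Of 1254 genes above each tissue with at least 1 CPM in thymus, 910 averaged at least 1 CPM in 1 or more of 20 cultured groups (57 libraries), and 432 had a cultured group above the thymus mean.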
